A study of Mus musculus with 16 samples.

Results

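The question addressed here was whether butyrate changed the transcriptome of mouse pancreatic islets differently in the presence and in the absence of IL-1β. RNA sequencing of 16 libraries was used, 4 for each of 4 conditions: unexposed islets (control), islets with 50 pg/mL recombinant mouse IL-1β, islets with 0.2 mM sodium butyrate, and islets with both. All 16 of the 16 libraries of the series were included. The islets came from 12 week old male mice of the strain given in the labels as C57BL/6JRj (C57BL/6NRj in the study's methods), were pooled from several animals and were cultured for 10 days in medium with human serum, with 500 islets in a library. For each of the 18587 genes tested, the interaction was computed on the log2 scale as (IL-1β plus butyrate minus IL-1β) minus (butyrate minus control), with the replicate number in the library name as a block. A positive interaction means that the level under both agents was above the product of the separate effects, and a negative one that it was below it.

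IL-1β is a cytokine that acts through the IL-1 receptor on the transcription factor NF-κB, and beta cells carry many of these receptors. In islets it raises genes of inflammation and lowers genes of the mature beta cell. Butyrate, a product of the bacterial fermentation of fibre in the gut, belongs to the short chain fatty acids. It inhibits histone deacetylases, enzymes that remove acetyl groups from histones, and also signals through receptors on the cell surface. Islets hold beta, alpha and other endocrine cells beside resident macrophages, endothelial and stromal cells, and in a bulk library fewer cells of a type and less RNA per cell cannot be told apart.

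The libraries had 18635943 to 25955943 counts (median 22184715), and no condition had a library whose total stood apart. Levels are given as CPM, counts per library of a common size after TMM scaling, in the order of replicates 1 to 4, and apply to a gene between conditions, not between genes of different length. *Ins2* and *Gcg*, the insulin and glucagon genes that define beta and alpha cells, had 145100 and 21530 CPM on average in control islets.

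At an edgeR false discovery rate (FDR) under 0.01, 132 genes had an interaction, 0.71% of those tested. It was positive in 60 (0.323%) and negative in 72 (0.387%), with a median size of 0.508 and a range from 0.257 to 5.51 on the log2 scale. The size was over 1 in 16 of them, 3 positive and 13 negative. Of the 132 genes, 131 code for proteins and the other, *Gm31373*, is a long noncoding RNA. The sign was the same for all 4 replicate numbers in 132 of 132, against 19.7% of all tested genes, and the call itself selects for such agreement. At an unadjusted p under 0.05, 2121 genes passed. By DESeq2, 115 genes were called, 101 of them among the 132. Without the replicate block only 18 genes were called, 8 positive and 10 negative, and 17 of these were among the 132. Scaling by library size alone gave 113 genes with 61.9% positive, against 45.5% positive with TMM scaling. The count fell to 72 without control replicate 2, and to 83, 57 and 53 without all 4 libraries of replicate number 2, 3 or 4.

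**Figure D1:**
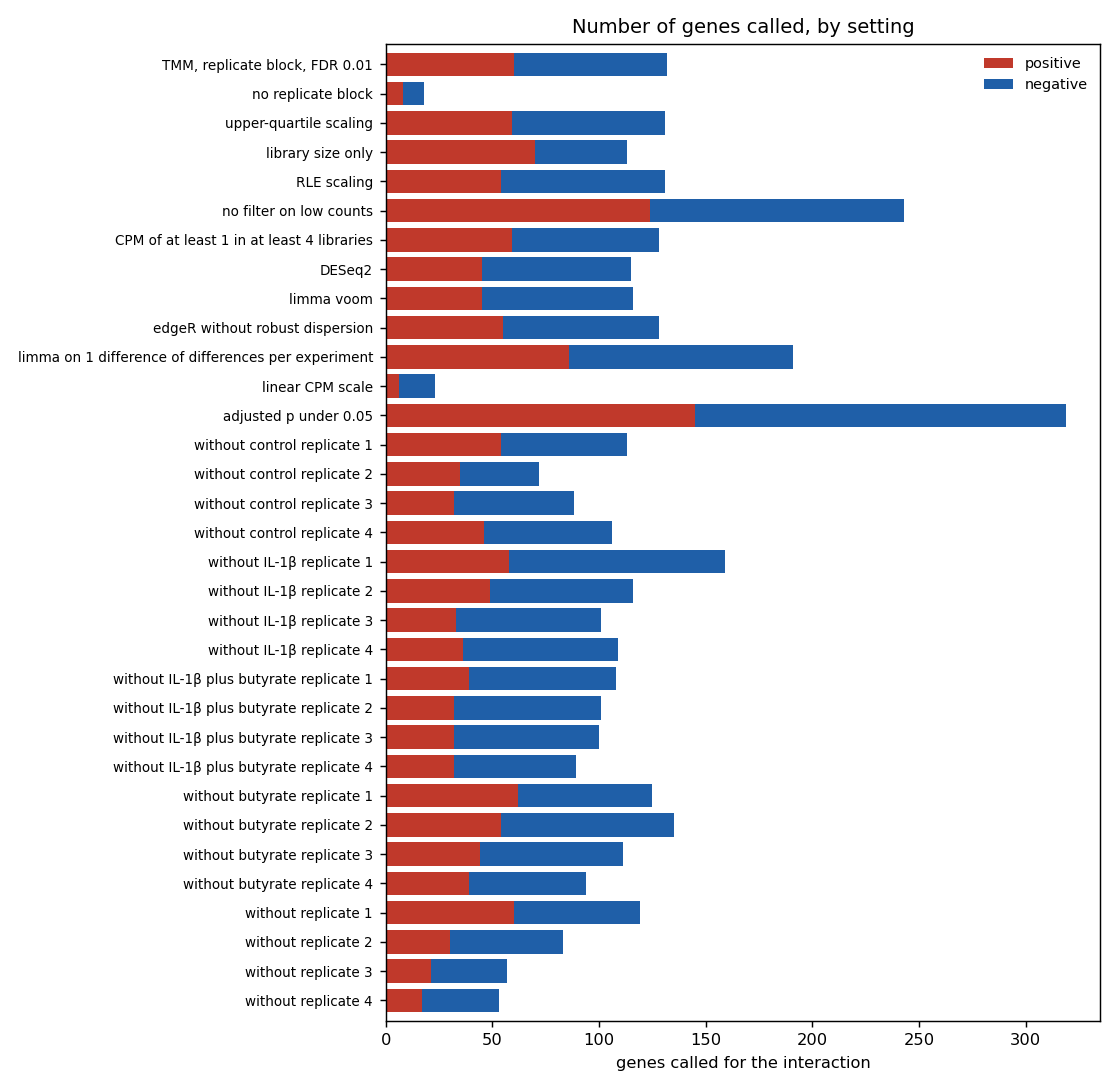
Horizontal bars give the number of genes called for the interaction under each processing setting, positive in red and negative in blue, with the reported setting at the top (132 genes). The bars without the replicate block (18 genes) and on the linear CPM scale (23 genes) are the shortest, and the bar without a filter on low counts (243 genes) is the longest after that at an FDR of 0.05 (319 genes).

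The interaction was rare beside the single effects. Butyrate changed 4879 genes (26.2%) in the absence of IL-1β and 4983 (26.8%) in its presence. Of these, 3444 moved in the same direction in both settings, which is 70.6% of the first list and 69.1% of the second, and 11 moved in opposite directions. The 2 butyrate effects share no library, and their log2 values had a Pearson r of 0.735 across the 18587 genes, given as a description since genes are not independent replicates. IL-1β changed 4537 genes (24.4%) without and 3750 (20.2%) with butyrate, 2888 of them in the same direction in both and 5 in opposite directions.

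**Figure D2:**
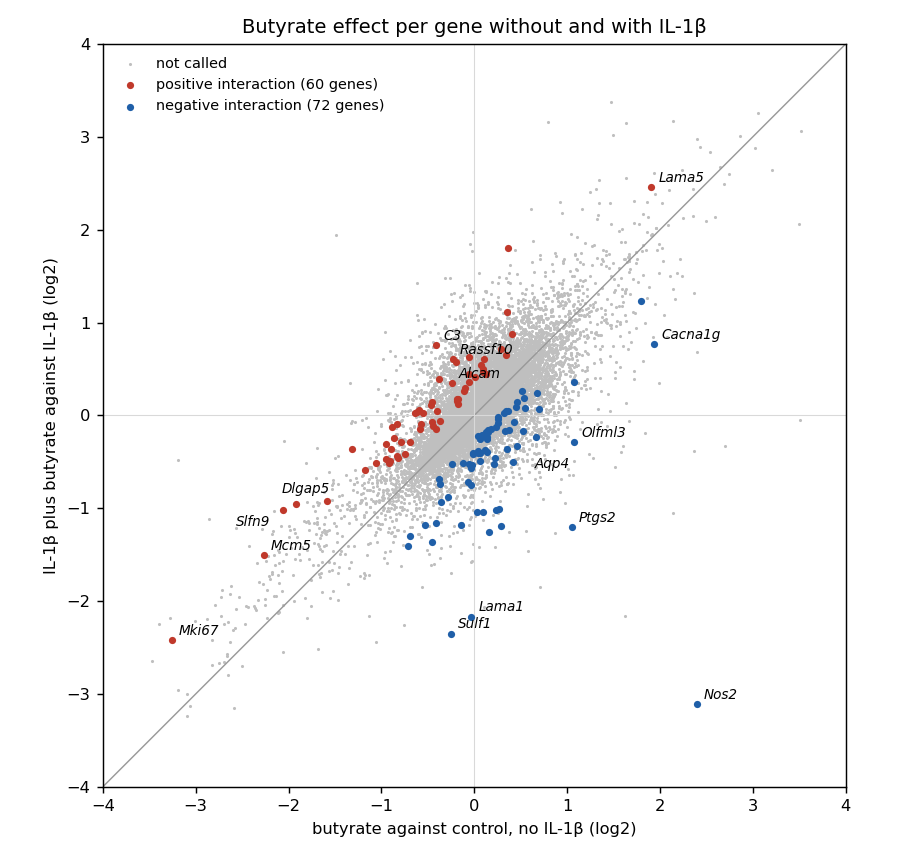
Each point is a gene, with the log2 effect of butyrate in the absence of IL-1β on the x axis and in its presence on the y axis; the line marks equal effects, and 1 gene lies outside the axes. The 60 genes with a positive interaction lie above the line and the 72 with a negative interaction below it, and *Nos2* is the point farthest from the line among those called.

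Since the interaction is the difference of the 2 butyrate effects, its genes can be sorted by them. Among the 72 genes with a negative interaction, 36 were not changed by butyrate alone at this threshold and were lowered by it in the presence of IL-1β. Another 16 were raised by butyrate alone and not called in the presence of IL-1β, 8 were lowered in both settings, 7 were raised in both, and 5 were raised alone and lowered with IL-1β. By the effect of IL-1β, 32 of the 72 were raised without and with butyrate, 18 were raised without butyrate only, 13 were lowered in both, 7 were lowered with butyrate only, and 2 were raised without and lowered with butyrate. Their median IL-1β effect was 0.65 without and 0.138 with butyrate. The interaction is also the difference of the IL-1β effects, so the lower value with butyrate follows from the selection of these genes. Among the 60 genes with a positive interaction, 19 were lowered by butyrate in both settings, 16 were lowered by butyrate alone and not called with IL-1β, 15 were raised only in the presence of IL-1β, 5 were raised in both, and 5 were lowered alone and raised with IL-1β. The "only" in these counts is a matter of the threshold for each effect. The test of the difference is the interaction itself.

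*Nfkb2* (chr19:46304320-46312385, ENSMUSG00000025225; gene positions are in GRCm38) encodes p100/p52, the NF-κB subunit of the non-canonical pathway. It was at 12.7, 11.1, 10.8 and 10.9 CPM in control, 14.5, 11.9, 14.4 and 12.1 in butyrate, 86.3, 66.8, 63.6 and 63.2 in IL-1β and 52.2, 44.8, 49.01 and 47.8 in IL-1β plus butyrate. Every IL-1β library was above every library with both agents, and the control and butyrate libraries overlapped. The product of the separate effects would be 81.3 CPM, and the interaction was -0.74 ± 0.088 (SE, edgeR FDR 1.18e-06, and 0.0314 without the block). *Nfkb2* shares exonic positions with *Psd* and AC114539.1 on the other strand, and the strand setting of the counting is not given in the sources used here. It was the only called gene among the 31 members of the IL-1 receptor and NF-κB list, of which 15 had a positive and 16 a negative value, with a median interaction of -0.000494 against 0.01 for all tested genes.

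Among called genes with a RefSeq promoter, only those of *Nfkb2* and *B2m*, the light chain of MHC class I molecules, held the NF-κB letters. *Nos2* had no RefSeq promoter in the set used and was not searched. The letters were GGGANTTTC, on either strand in the 250 bases before a RefSeq start. The matches are shown here with 10 bases on each side, chosen after their values were seen, 5′ to 3′ on the strand of the gene (plus for both), GRCm38.p6, with the match in capitals:
*Nfkb2* at chr19:46305503-46305531: cacgctggctGAAAATCCCaagtttgctc
*Nfkb2* at chr19:46305695-46305723: tggtattttcGGGACTTTCctaagcagca
*B2m* at chr2:122147552-122147580: ctgaaaatggGAAAGTCCCtttgtaacct
These letters occurred in 3 of 83 promoters of genes with a negative interaction (53 of the 72 genes had a RefSeq promoter), in 0 of 55 with a positive one (44 of the 60 genes) and in 0.941% of all 32851. A match is a description of these windows and not a binding site. *B2m* rose from 14.2 to 18.1 CPM in control to 41.9 to 51.4 with IL-1β and 34.4 to 41.6 with both agents, with an interaction of -0.38 ± 0.078 (edgeR FDR 0.00486). The *B2m* call was lost without any of 8 single libraries, with an FDR of up to 0.0224 (without control replicate 2), and without the block (0.144). Without 1 replicate number its FDR reached 0.0668.

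*Nos2* (chr11:78920787-78960254, ENSMUSG00000020826), the inducible nitric oxide synthase, had the largest fitted interaction, and it was a gene of few counts. Its counts were 0, 0, 2 and 1 in control, 10, 2, 1 and 4 in butyrate, 34, 26, 44 and 58 in IL-1β and 3, 9, 3 and 4 in IL-1β plus butyrate. Every IL-1β library was thus above every library of the other 3 conditions. The butyrate libraries overlapped those of control and of both agents, while the libraries with both agents lay above control. The mean was 1.85 CPM with IL-1β and 0.207 CPM with both agents, a ratio of 8.94. The control libraries were at or under a floor of 3 counts each, so the fitted value of -5.51 (edgeR FDR 0.000547, 0.00440 without the block) depends on the prior count. With the control set at that floor in each library (0.134 CPM on average), the interaction from the group means was -3.76. The call was lost without butyrate replicate 1, the butyrate library with 10 counts (FDR 0.0163), and without all libraries of replicate number 1 (0.0390) or 4, and DESeq2 gave no adjusted p for *Nos2*.

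The list of nitric oxide, prostaglandin and superoxide enzymes had 3 called genes of 18 tested, all negative, where 0.71% of all genes were called. DESeq2 called 2 of the 18. The study names *Nos2* and *Ptgs2* from these same libraries, so this share is not an independent comparison. The list's median was -0.153. *Gch1*, GTP cyclohydrolase, which makes the cofactor of nitric oxide synthases, was at 172, 171, 162 and 160.5 CPM in control, 216, 198, 193 and 188 in butyrate, 209, 212, 202 and 202 in IL-1β and 201, 213, 197 and 204 with both. Each agent alone raised it (0.25 and 0.31 on the log2 scale), and adding butyrate to IL-1β gave a difference of -0.02 that did not pass the test (FDR 0.711). Its interaction was -0.27 ± 0.054 (edgeR FDR 0.00297, 0.0843 without the block), lost without control replicate 2 or 3 or butyrate replicate 1 (up to 0.0156). The *Gch1* call was also lost without replicate number 1, 3 or 4 (up to 0.0616). *Ptgs2*, the inducible cyclooxygenase, was low at 0.239 to 0.385 CPM in control, 0.366 to 1.46 in butyrate, 1.52 to 2.999 in IL-1β and 0.552 to 1.45 with both. Its interaction of -2.25 ± 0.48 (edgeR FDR 0.00842) was lost without any of 11 single libraries, with an FDR of up to 0.0978 (without butyrate replicate 1). The *Ptgs2* call was also lost without replicate number 1, 2 or 4 (up to 0.275) and without the block (0.107).

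After *Nos2* and *Ptgs2*, the largest negative interactions were those of 2 extracellular matrix genes. *Lama1* (chr17:67697259-67822647, ENSMUSG00000032796), a laminin alpha chain of basement membranes, was at 1.26, 1.58, 1.15 and 1.33 CPM in control, 1.10, 1.42, 1.20 and 1.46 in butyrate, 13.5, 10.3, 9.64 and 9.53 in IL-1β and 2.80, 2.89, 1.53 and 2.31 with both agents. Butyrate alone left the libraries overlapping with control, while the 4 libraries with both agents were all below the 4 with IL-1β, and 1 of them fell within the control range. Its interaction was -2.14 ± 0.24 (edgeR FDR 3.88e-07, 0.000151 without the block), and it passed the threshold in all 32 alternatives. *Sulf1* (chr1:12692277-12861192, ENSMUSG00000016918), a sulfatase that trims heparan sulfate outside the cell, was at 1.54, 0.834, 0.860 and 0.685 CPM in control, 1.36, 0.489, 0.522 and 0.903 in butyrate, 44.8, 37.2, 25.4 and 32.3 in IL-1β and 8.08, 7.94, 4.91 and 6.40 with both. The libraries with both agents lay between control and IL-1β with no overlap, and the interaction was -2.10 ± 0.27 (edgeR FDR 3.41e-06, 0.262 without the block).

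Other genes raised by IL-1β followed the same order of levels. *Crispld2*, a secreted protein of the CAP family, rose from 1.06 to 25.6 CPM with IL-1β and was at 11.3 CPM with both agents (interaction -1.48 ± 0.30, edgeR FDR 0.00960). *Fabp5*, a fatty acid binding protein, was at 1.25, 8.48 and 3.57 CPM in the same order (interaction -1.41 ± 0.23, FDR 0.000251). *Il18r1*, the receptor chain that binds IL-18, was at 0.963, 4.57 and 2.24 CPM (interaction -1.26 ± 0.28, FDR 0.00960). In these genes butyrate alone gave no call, and butyrate on top of IL-1β changed the level by -1.25 to -1.02 on the log2 scale. *Ramp1*, a subunit of the receptor for calcitonin gene-related peptide, and *Dnah11*, a dynein heavy chain of cilia, were raised by IL-1β alone (1.19 and 1.15) and gave -0.08 and 0.12, neither called, in the presence of butyrate. Their interactions were -1.27 ± 0.20 (edgeR FDR 0.000108, 0.00451 without the block) and -1.03 ± 0.16 (FDR 0.000105, 0.00189). *Dnah11* shares exonic positions with *Cdca7l* on the other strand. *Tgif1*, a repressor in TGFβ signalling, and *Pqlc3* also had interactions (-0.92 ± 0.21 and -1.13 ± 0.24, FDR 0.00982 and 0.00685). Of the genes in this paragraph, *Ramp1* and *Dnah11* kept the call in every fit without 1 library or 1 replicate number. *Fabp5* lost it without replicate number 2 (0.0202) and without the block (0.0395). *Crispld2*, *Il18r1*, *Tgif1* and *Pqlc3* lost it without any of 12, 13, 13 and 10 single libraries, with FDR values of up to 0.0490 (without control replicate 2), 0.0641 (without butyrate replicate 2), 0.0469 (without butyrate replicate 1) and 0.0471 (without control replicate 2).

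*Olfml3*, a secreted glycoprotein with an olfactomedin domain, showed another order. It was at 1.91, 2.42, 2.53 and 2.44 CPM in control, 4.42, 5.996, 4.34 and 4.77 in butyrate, 3.57, 4.58, 5.55 and 4.73 in IL-1β and 4.39, 3.01, 4.07 and 3.52 with both agents. Each agent alone put all 4 libraries above control, and the libraries with both overlapped those with IL-1β. Its interaction was -1.37 ± 0.20 (edgeR FDR 4.45e-05, 0.00139 without the block). *Slc5a10*, a sodium-coupled sugar transporter, and *Ugt2b35*, a glucuronosyltransferase, had interactions of -0.75 ± 0.16 and -1.07 ± 0.20 (edgeR FDR 0.00648 and 0.00154). *Slc5a10* overlaps exons of *Fam83g* and *Grap* and lost its call without any of 11 single libraries, with an FDR of up to 0.0321 (without butyrate replicate 4). The *Slc5a10* call was also lost without replicate number 1, 3 or 4 (up to 0.0740) and without the block (0.806). *Ugt2b35* varied between replicate numbers from 2.27 to 7.05 CPM within the control islets alone, and lost its call without replicate number 3 or 4 (up to 0.0405) and without the block (0.856).

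**Figure D3:**
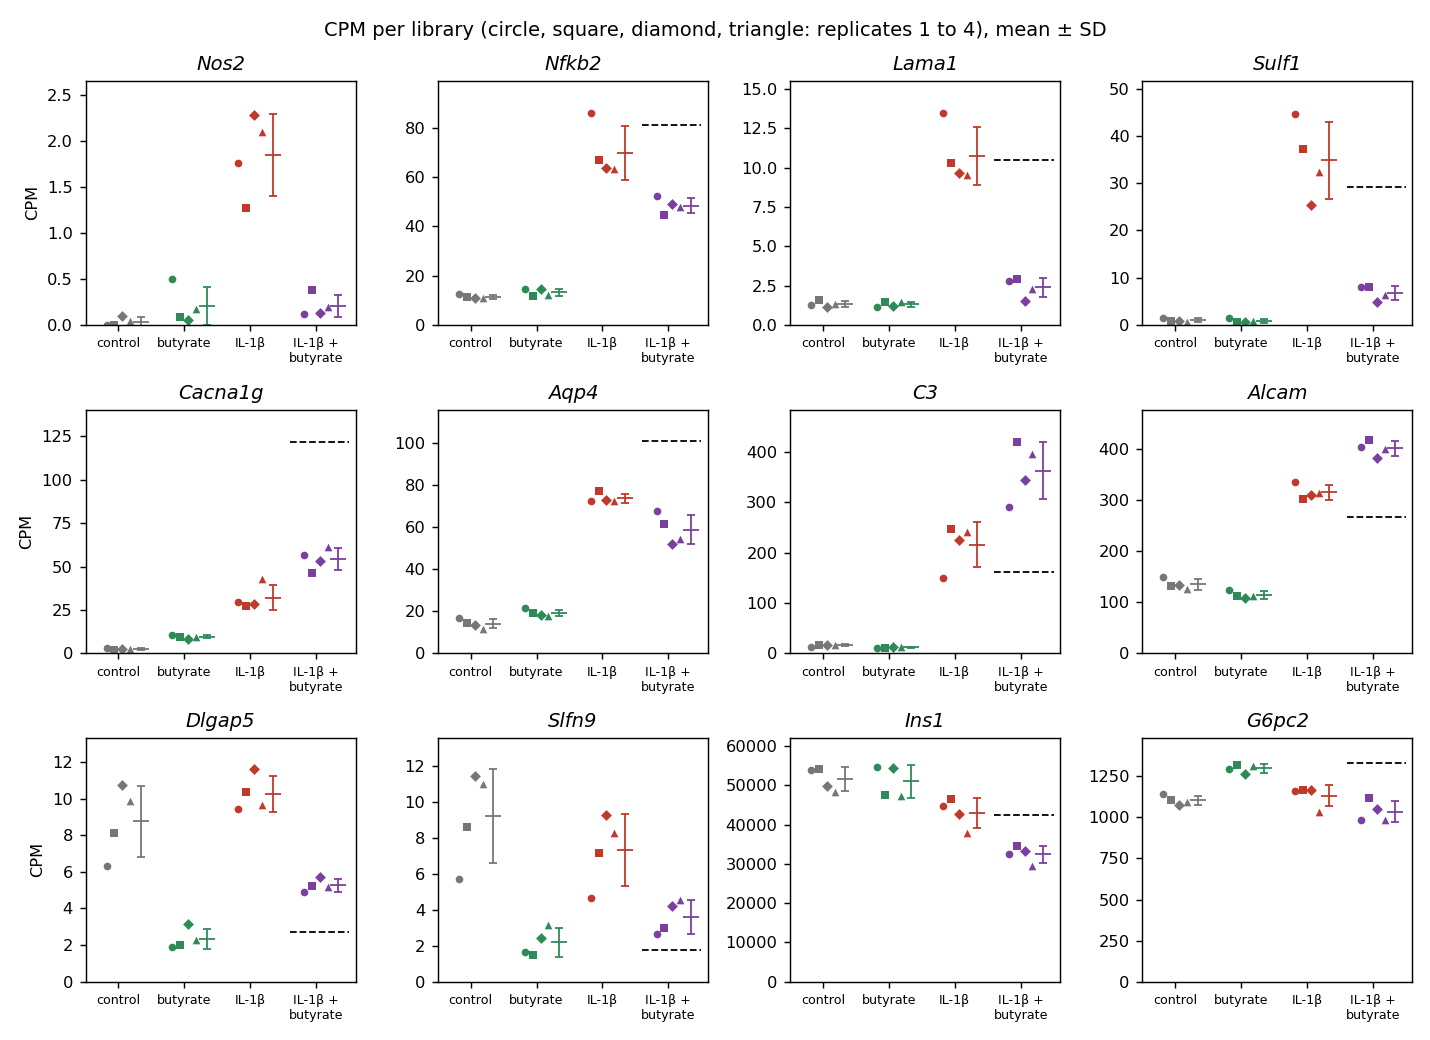
CPM of 12 genes in each library, with the conditions on the x axis and CPM from 0 on the y axis; points are single libraries, horizontal marks with bars are the mean ± SD of 4, and the dashed line over IL-1β plus butyrate (not drawn for *Nos2*) is the product of the separate effects. The libraries with both agents lie below that line for *Nfkb2*, *Lama1*, *Sulf1*, *Cacna1g*, *Aqp4*, *Ins1* and *G6pc2* and above it for *Alcam*, *C3*, *Dlgap5* and *Slfn9*.

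A calcium channel gene was raised by each agent and raised further by both, but by less than the product. *Cacna1g* (chr11:94408391-94474198, ENSMUSG00000020866), the pore subunit of a low-voltage-activated (T-type) calcium channel, was at 2.99, 2.08, 2.25 and 2.65 CPM in control, 10.7, 9.28, 8.41 and 9.63 in butyrate, 29.7, 27.2, 28.2 and 42.7 in IL-1β and 56.5, 46.2, 53.1 and 61.5 with both. No 2 conditions overlapped. The product of the separate effects would be 122 CPM, and the interaction was -1.17 ± 0.15 (edgeR FDR 9.24e-06, 0.108 without the block). On the linear CPM scale, where the reference is the sum of the separate changes, its sign turned positive and did not pass (FDR 0.129). In the list of voltage-gated calcium and sodium channels it was the only call of 23 genes tested, with a median interaction of 0.0241 (-0.00941 without IL-1β replicate 1).

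In other genes the direction of the butyrate effect changed with IL-1β. Of the 11 genes that butyrate moved in opposite directions, 5 are among those named by the rule given below. These are *C3* and *Alcam* with a positive interaction, and *Aqp4*, *Phactr1* and *Tmem215* with a negative one. *Tmem176b*, picked outside that rule, is another of the 11. *C3* (chr17:57203970-57228136, ENSMUSG00000024164), the central component of complement, was at 12.7, 17.4, 17.01 and 16.1 CPM in control, 10.6, 11.2, 12.3 and 13.4 in butyrate, 149.6, 248, 226 and 242 in IL-1β and 292, 419.9, 345 and 396 with both. The lowest library with both agents was above the highest with IL-1β, while control and butyrate libraries overlapped. Butyrate lowered *C3* by itself (-0.41, FDR 0.000289) and raised it on top of IL-1β (0.76, FDR 1.16e-12). The product of the separate effects would be 162 CPM, and the interaction was 1.17 ± 0.10 (edgeR FDR 1.88e-08), with 1.23, 1.39, 1.08 and 0.97 in replicates 1 to 4. It was called in every fit without 1 library or 1 replicate number but not without the block (0.135). Of the 17 complement genes tested, *C3* included, 3 had a positive and 14 a negative value, with a median of -0.344, and *C3* was the only one called.

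*Alcam* (chr16:52248996-52454074, ENSMUSG00000022636), an adhesion molecule of the immunoglobulin family, was at 149.9, 132, 134 and 126 CPM in control, 124, 113, 108 and 112 in butyrate, 336, 303, 309.5 and 314 in IL-1β and 404, 419, 384 and 401 with both. Butyrate libraries were all below control, and libraries with both were all above IL-1β. The interaction was 0.59 ± 0.058 (edgeR FDR 1.88e-08, 0.000151 without the block), and it passed the threshold in all 32 alternatives. *Aqp4* (ENSMUSG00000024411), a water channel, went the other way at 16.7, 14.4, 13.3 and 11.6 CPM in control, 21.4, 19.3, 18.4 and 17.7 in butyrate, 72.4, 77.1, 72.9 and 72.6 in IL-1β and 67.6, 61.4, 52.2 and 54.5 with both. Butyrate raised it without overlap when alone and lowered it without overlap in the presence of IL-1β, with an interaction of -0.79 ± 0.085 (FDR 1.82e-07, 0.00733 without the block).

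*Phactr1*, a regulator of actin and protein phosphatase 1, was at 248, 214, 223 and 217 CPM in control, 298, 283, 262 and 289 in butyrate, 284, 244, 239 and 243 in IL-1β and 249, 214, 219.5 and 212 with both. Each agent raised it when alone and lowered it in the presence of the other, although the libraries with IL-1β and with both overlapped across replicate numbers. The interaction was -0.50 ± 0.055 (edgeR FDR 1.82e-07, 0.00570 without the block). *Tmem215*, a transmembrane protein, was at 156, 158, 141 and 127 CPM in control, 187, 172, 143 and 141 in butyrate, 128, 122, 113 and 101 in IL-1β and 98.2, 93.2, 86.4 and 75.4 with both (interaction -0.54 ± 0.056, FDR 7.61e-08, 0.311 without the block). Here the ranges of control and butyrate overlapped, whereas those of IL-1β and both agents did not.

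A group of genes of the dividing cell had a positive interaction with low levels under both agents. Butyrate lowered *Dlgap5*, *Mki67* and *Mcm5* in both settings, and *Cdt1* in the absence of IL-1β (with IL-1β -0.36, FDR 0.0320). *Dlgap5*, a mitotic spindle protein, was at 6.35, 8.13, 10.8 and 9.85 CPM in control, 1.91, 1.999, 3.13 and 2.28 in butyrate, 9.41, 10.4, 11.6 and 9.64 in IL-1β and 4.87, 5.22, 5.74 and 5.20 with both. Libraries with both agents lay above those with butyrate alone and below control and IL-1β, with no overlap. The interaction was 0.96 ± 0.16 (edgeR FDR 0.000247, 0.0534 without the block), lost without replicate number 4 (0.0166). *Mki67*, the Ki-67 proliferation antigen, was at 24.1, 38.7, 59.2 and 54.9 CPM in control, 2.26, 3.33, 7.11 and 5.85 in butyrate, 16.7, 26.6, 36.2 and 26.1 in IL-1β and 2.56, 3.82, 7.36 and 6.16 with both. Its ranges under butyrate overlapped with and without IL-1β, and IL-1β alone changed it by -0.74; the interaction was 0.84 ± 0.17 (FDR 0.00872, 0.887 without the block). *Cdt1*, a factor that licenses replication origins, and *Mcm5*, a subunit of the replicative helicase, had interactions of 0.96 ± 0.19 and 0.76 ± 0.17 (FDR 0.00296 and 0.00960, 0.0520 and 0.508 without the block). *Cdt1*, *Mki67* and *Mcm5* lost their calls without any of 5, 11 and 12 single libraries, with FDR values of up to 0.0152 (without butyrate replicate 4), 0.0521 and 0.0569 (without IL-1β plus butyrate replicates 3 and 1). Without 1 replicate number their FDR values reached 0.0795, 0.0678 and 0.0704.

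The lists of S phase and G2/M phase genes had few called genes, 1 of 43 (2.33%) and 2 of 54 (3.7%). These shares were above the 0.71% of all genes but rest on single genes, and DESeq2 called 0 and 2. *Mcm5*, the S phase call, lost it in 24 of 32 alternatives, among them DESeq2 (FDR 0.0227). Their signs were positive in 40 of 43 and 47 of 54 genes, with medians of 0.236 and 0.281 against 0.01 over all tested genes, of which 9835 of 18587 were positive. The medians for single replicate numbers went from 0.0566 to 0.46 for S phase and from -0.00686 to 0.462 for G2/M, with the lowest values in replicate 1. The median butyrate effect over the G2/M genes was -1.99 without and -1.23 with IL-1β on the log2 scale.

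*Slfn9* (chr11:82978390-82991830, ENSMUSG00000069793), of the Schlafen family, was at 5.74, 8.63, 11.4 and 11 CPM in control, 1.66, 1.47, 2.46 and 3.18 in butyrate, 4.65, 7.16, 9.28 and 8.30 in IL-1β and 2.64, 3.01, 4.20 and 4.57 with both. IL-1β lowered it when alone (-0.33, FDR 0.00527) and raised it in the presence of butyrate (0.72, FDR 8.71e-05). Its interaction was 1.05 ± 0.17 (edgeR FDR 0.000197, 0.616 without the block). *Rassf10*, of the Ras association domain family, showed the same reversal at 13.6, 17.9, 18.3 and 17.8 CPM in control, 13.96, 12.7, 16.6 and 14.7 in butyrate, 12.3, 13.6, 12.8 and 13.2 in IL-1β and 19.5, 19.6, 21.3 and 18.6 with both, and libraries with both agents were above all others. Its interaction was 0.84 ± 0.10 (FDR 1.27e-06, 0.000662 without the block). *Slc7a3*, a transporter of cationic amino acids, also changed direction with IL-1β, by -0.48 without and 0.28 with butyrate (interaction 0.76 ± 0.10, FDR 6.95e-06, 0.0169 without the block).

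Among named genes with a searched motif in a RefSeq promoter, *Slfn9* and *Cdt1* (positive) and *Ptgs2* and *Olfml3* (negative) had the largest interactions. *Nos2*, *Lama1* and *Sulf1* had no RefSeq promoter in the set used and were not searched. The 250 bases before the RefSeq start are shown for *Slfn9*, *Cdt1*, *Ptgs2* and *Olfml3*, since these genes move apart under the same agents. They are written 5′ to 3′ on the strand of the gene, GRCm38.p6, with motif matches in capitals:
*Slfn9* (chr11:82991831-82992080, minus strand; interferon response element and GC box): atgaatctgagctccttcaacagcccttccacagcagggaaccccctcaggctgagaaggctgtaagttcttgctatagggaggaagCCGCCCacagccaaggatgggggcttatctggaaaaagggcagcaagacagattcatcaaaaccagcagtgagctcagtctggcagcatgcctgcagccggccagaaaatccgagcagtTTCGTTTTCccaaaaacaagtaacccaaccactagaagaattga
*Cdt1* (chr8:122567765-122568014, plus strand; GC box): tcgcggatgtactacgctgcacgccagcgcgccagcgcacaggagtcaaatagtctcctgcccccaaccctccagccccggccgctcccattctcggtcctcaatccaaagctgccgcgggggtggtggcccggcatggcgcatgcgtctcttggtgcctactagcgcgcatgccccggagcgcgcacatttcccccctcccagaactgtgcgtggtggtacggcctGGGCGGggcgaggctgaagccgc
*Ptgs2* (chr1:150099781-150100030, plus strand; GC box): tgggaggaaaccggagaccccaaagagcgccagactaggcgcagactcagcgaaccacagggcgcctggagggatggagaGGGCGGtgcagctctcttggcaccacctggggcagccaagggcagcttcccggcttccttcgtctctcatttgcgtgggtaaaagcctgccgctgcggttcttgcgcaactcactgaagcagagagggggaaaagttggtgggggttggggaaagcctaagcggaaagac
*Olfml3* (chr3:103738002-103738251, minus strand; GC boxes, next to and overlapping each other): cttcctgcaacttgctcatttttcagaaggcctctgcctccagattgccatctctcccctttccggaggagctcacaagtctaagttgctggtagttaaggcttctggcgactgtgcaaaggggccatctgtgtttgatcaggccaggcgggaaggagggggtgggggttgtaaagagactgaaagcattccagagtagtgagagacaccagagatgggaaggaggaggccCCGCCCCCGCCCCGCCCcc
Both strands were searched for GGGCGG (GC box), GAAANNGAA (interferon response element), TTCNNNGAA (STAT), TGANTCA (AP-1) and TGACGTCA (cAMP response element), beside the NF-κB letters; STAT and interferon matches can overlap. A GC box was in 32.7% of all 32851 RefSeq promoters, in 27 of 55 of genes with a positive interaction and in 37 of 83 with a negative one. The interferon response element was in 7.13% of all, 3 of 55 and 8 of 83. The STAT letters were in 7.02% of all, 1 of 55 and 5 of 83, the AP-1 letters in 6.75%, 2 and 4, and the cAMP response element in 1.55%, 2 and 1. These matches describe the windows and were not tested.

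In the beta cell list, 2 of 30 genes were called, both negative, against 0.71% of all genes, and 4 were called by DESeq2. The sign was negative in 23 of the 30 (median -0.0713), against 8752 of all 18587 genes. *Ins1* (chr19:52264297-52265476, ENSMUSG00000035804), one of the mouse insulin genes, was at 53890, 54240, 49740 and 48160 CPM in control, 54630, 47450, 54490 and 47310 in butyrate, 44730, 46450, 42730 and 37750 in IL-1β and 32500, 34470, 33300 and 29520 with both. Control and butyrate overlapped, and every library with both agents was below every IL-1β library. The interaction was -0.39 ± 0.073 (edgeR FDR 0.00183, 0.113 without the block), lost without control replicate 3 (0.0151) and without replicate number 1 or 3 (up to 0.0925). *G6pc2*, the islet glucose-6-phosphatase that opposes glucokinase, was at 1139, 1105, 1077 and 1094 CPM in control, 1295, 1317, 1263 and 1315 in butyrate, 1161, 1166, 1164 and 1034 in IL-1β and 986, 1117, 1051 and 984 with both. Butyrate alone raised it without overlap, and the IL-1β libraries overlapped with control and with both agents. The interaction was -0.36 ± 0.06 (FDR 0.000273, 0.0169 without the block), lost without replicate number 3 (0.0177).

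Other genes that define mature beta cells were not called by edgeR. *Mafa*, a transcription factor of mature beta cells, was at 434, 407, 368 and 377 CPM in control, 434, 428, 332 and 356 in butyrate, 265, 232, 213 and 178 in IL-1β and 166, 132, 137 and 84.3 with both. The 4 libraries with both agents were all below those with IL-1β, and the interaction of -0.74 ± 0.16 had an edgeR FDR of 0.0667, and of 0.000866 by DESeq2. *Ins2* had -0.15 ± 0.08 (edgeR FDR 0.495) and *Ucn3*, the urocortin of mature beta cells, 0.15 ± 0.061 (FDR 0.274). Among the 41 genes that the study names and that are used here, 4 were called by edgeR, *Nos2*, *Ptgs2*, *Ins1* and *Lama5*, against 0.71% of all genes. An unadjusted edgeR p under 0.05 was found for 19 of the 41, against 2121 of all 18587 genes. The study picked several of the 41, such as *Nos2* and *Lama5*, by their butyrate response under IL-1β in these same libraries. That response is part of the interaction, so these shares are not an independent comparison. DESeq2 called 3 of the 41, *Ptgs2*, *Ins1* and *Mafa*, and gave *Lama5* an FDR of 0.0151.

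*Cadps2*, which primes dense core vesicles for release, was at 25.8, 25.4, 28.9 and 27.1 CPM in control, 12.5, 13.5, 16.04 and 13.8 in butyrate, 34.7, 33.6, 36.9 and 35.01 in IL-1β and 24.97, 29.8, 28.5 and 29.6 with both. Butyrate lowered it without overlap in both settings, and the fall was smaller with IL-1β (-0.31 against -0.95). The interaction was 0.63 ± 0.08 (edgeR FDR 2.80e-06, 0.00121 without the block), the only call of 40 exocytosis genes, of which 19 had a positive and 21 a negative value (median -0.0136). *St3gal1*, a sialyltransferase, and *Tmem255a*, a transmembrane protein, had butyrate effects of -1.58 and -0.83 without IL-1β and -0.93 and -0.10 with it, the last not called. Their interactions were 0.66 ± 0.082 and 0.74 ± 0.072 (FDR 2.07e-06 and 1.88e-08, 0.000161 and 9.47e-05 without the block). *Tmem255a* overlaps exonic positions of *Zbtb33*.

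*Kcna2*, a voltage-gated potassium channel, was lowered by each agent alone (-0.45 by butyrate and -0.64 by IL-1β), and the effect of butyrate on top of IL-1β was 0.14, not called. Its interaction was 0.59 ± 0.11 (edgeR FDR 0.00158), the only call of 65 potassium channel genes. *Oat*, ornithine aminotransferase, a gene of the list of disallowed and progenitor genes, had 0.58 ± 0.10 (FDR 0.000633). *Gcg* had 0.37 ± 0.078 (FDR 0.00685) and *Etv1*, a transcription factor listed for delta and PP cells, 0.33 ± 0.071 (FDR 0.00981). *Sema4f*, a semaphorin, *Rasl10b*, a small GTPase, and *Gm31373* had 0.78 ± 0.17, 0.76 ± 0.17 and 0.77 ± 0.17 (FDR 0.00676, 0.00960 and 0.00728). *Kcna2* and *Oat* lost their calls only without replicate number 2 or 4 (up to 0.0422 and 0.0212) among the fits without libraries, and also without the block (0.123 and 0.0233). *Gcg*, *Etv1*, *Sema4f*, *Rasl10b* and *Gm31373* lost theirs without any of 12 or 13 single libraries, with FDR values of up to 0.0463 (IL-1β replicate 3), 0.0375 (IL-1β plus butyrate replicate 4), 0.0280 (IL-1β plus butyrate replicate 3), 0.0976 (IL-1β replicate 4) and 0.0312 (control replicate 3), naming the library left out.

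*Ccl28*, a chemokine of mucosal tissues, rose with IL-1β from 19.4 ± 1.14 to 221 ± 12.9 CPM (SD, n = 4), and was at 159.8 ± 25.4 CPM with both agents. Butyrate lowered it in both settings, by -0.95 alone and -0.47 with IL-1β, and the interaction was 0.48 ± 0.082 (edgeR FDR 0.000547, 0.261 without the block, 0.0107 without replicate number 4). On the linear CPM scale its sign turned negative (FDR 0.0990). It was the only call of 16 chemokine ligands. *Lama5*, another laminin alpha chain, was raised by butyrate in both settings, from 6.15 to 23.02 CPM alone and from 4.42 to 24.4 CPM with IL-1β (interaction 0.55 ± 0.12, FDR 0.00681). *Lama5* lost its call without any of 14 single libraries (up to 0.0290, without control replicate 3), and the sign was opposite to that of *Lama1*. Without 1 replicate number the FDR of *Lama5* reached 0.0794, and without the block it was 0.113.

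**Figure D4:**
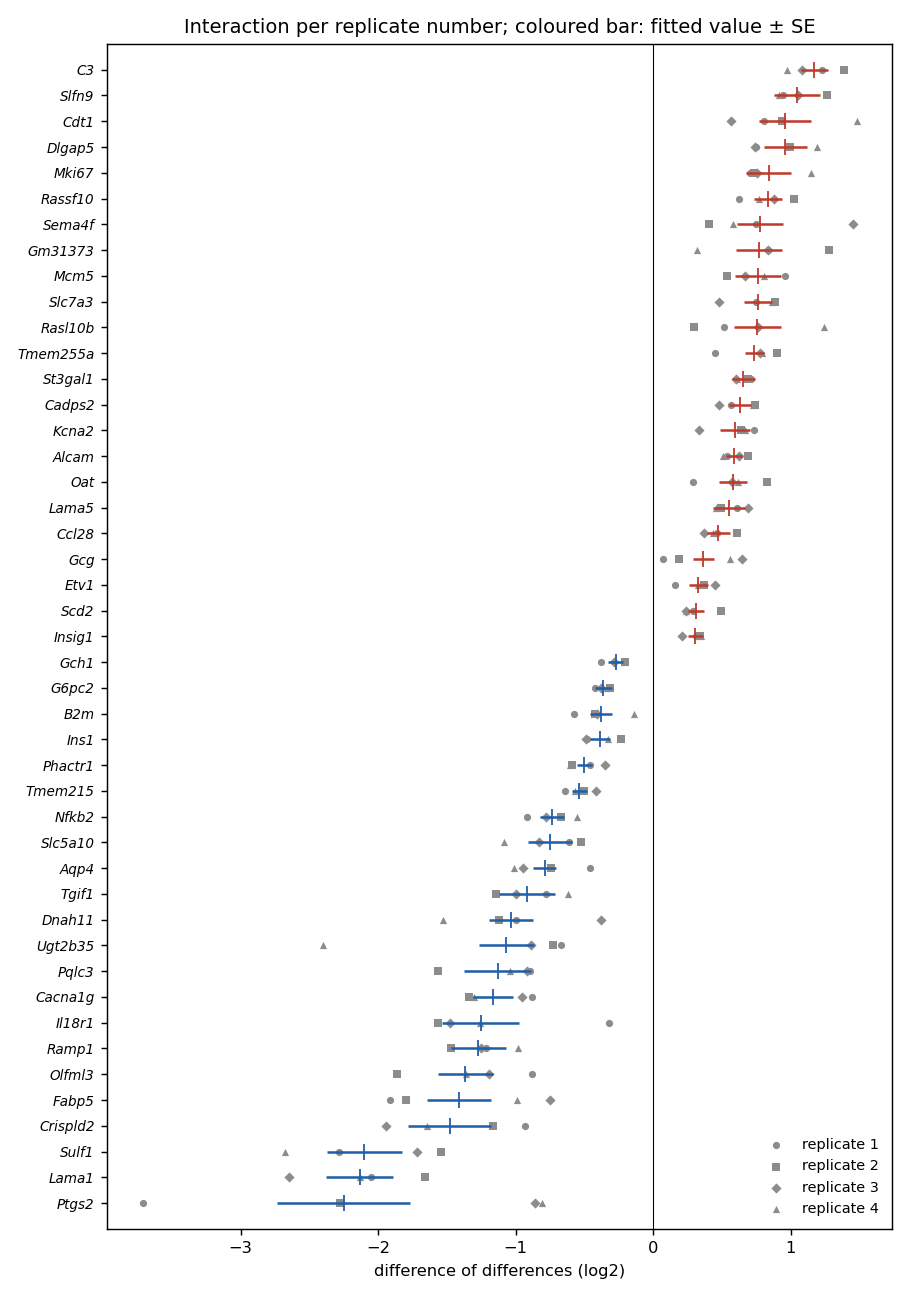
The x axis gives the difference of differences on the log2 scale for 45 called genes, all those named by rule except *Nos2*. Grey symbols are for single replicate numbers 1 to 4, and a coloured bar is the fitted value ± SE. All 4 symbols are on the side of the fitted value for each gene, and the spread between replicates is widest for *Ptgs2*.

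Genes of sterol and fatty acid synthesis had 2 positive calls of 27 tested, where 0.323% of all genes were called positive. A positive sign was found in 24 of the 27, against 9835 of all 18587, and the median was 0.0892, against 0.01. *Insig1*, which retains the sterol sensor SCAP in the endoplasmic reticulum, was at 146, 135, 141 and 129.5 CPM in control, 115, 105, 110.1 and 97.5 in butyrate, 98.03, 92.4, 91.3 and 82.3 in IL-1β and 95.8, 90.6, 82.7 and 79.1 with both. Each agent alone put its libraries below control, and libraries with IL-1β and with both overlapped. The interaction was 0.31 ± 0.055 (edgeR FDR 0.00101, 0.198 without the block), lost without replicate number 4 (0.0402). *Scd2*, a stearoyl-CoA desaturase, had 0.31 ± 0.061 (FDR 0.00236), and lost its call without any of 4 single libraries, up to 0.0134 (without IL-1β plus butyrate replicate 2). The *Scd2* call was also lost without replicate number 2, 3 or 4 (up to 0.0391) and without the block (0.229).

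Across the 35 lists examined, 17 had at least 1 called gene, 18 had none, and none had more than 3. The acute phase and secreted defence proteins, which IL-1β raised most (median 6.21 on the log2 scale), had 0 called by edgeR and by DESeq2, with 2 of 20 at an unadjusted p under 0.05. Their median interaction was -0.535, but its sign rested on 1 library: it was 0.227 without butyrate replicate 1 and 0.0348 without replicate number 1. For single replicate numbers the median was -0.533, 0.0726, 0.117 and 0.0241. The interferon-inducible GTPases, proteins of cell-autonomous defence, had 0 called of 12 by both tools, 3 at an unadjusted p under 0.05, all negative, and a median of -0.481. Their median IL-1β effect was 2.7 without and 1.95 with butyrate. Short chain fatty acid receptors, transporters and histone deacetylases had 0 called of 28 by both tools, 4 at an unadjusted p under 0.05, and a median of -0.0424.

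**Figure D5:**
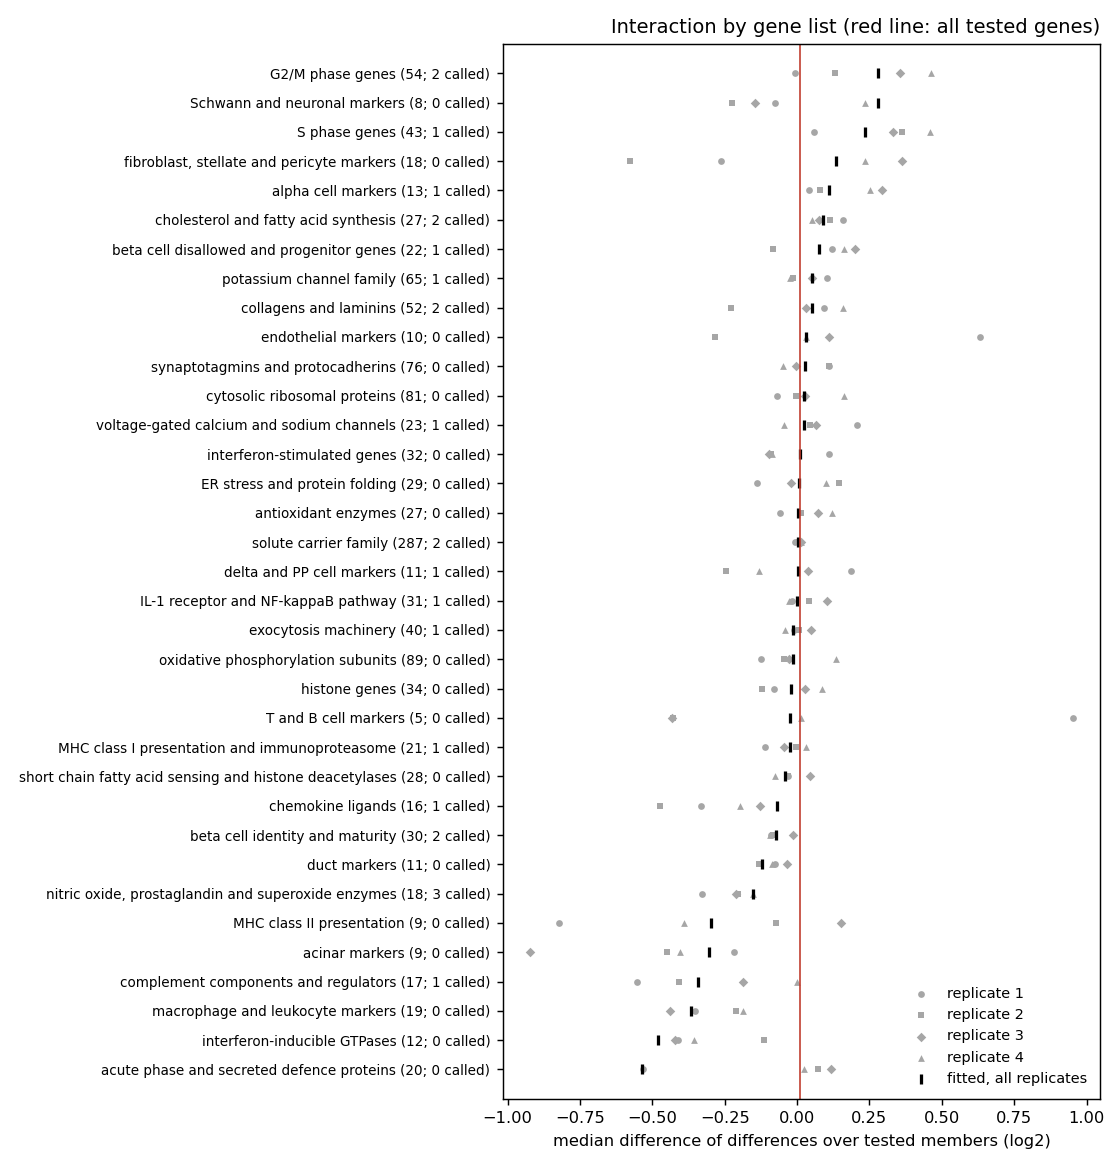
For each of 35 gene lists (number of members tested and called in brackets), the black mark is the median fitted interaction on the log2 scale and the grey symbols are the medians for replicate numbers 1 to 4; the red line is the median of all tested genes (0.01). The G2/M and S phase lists lie to the right. So does the fitted median of the Schwann and neuronal list (0.279), with -0.225 to 0.236 for single replicate numbers. The interferon-inducible GTPase, macrophage and complement lists lie to the left. The fitted median of the acute phase list is also to the left (-0.535), with replicate number 1 to the left and the other three to the right of 0.

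Markers of other cell types moved with the conditions. Of the macrophage and leukocyte markers, 19 of 20 were tested and none was at 0. Their summed level was 138 to 151 CPM in control, 92.7 to 111 in butyrate, 216.5 to 282 in IL-1β and 115 to 166 with both, and 0 were called by edgeR and DESeq2. Of the 19 markers, 16 had a negative interaction sign (median -0.365) and 5 an unadjusted p under 0.05, against 8752 and 2121 of all 18587 genes. The duct markers summed to 713 to 776 CPM in control, 679.8 to 749 in butyrate, 973 to 1116 in IL-1β and 956 to 1232 with both (0 of 11 called by both tools, 3 at an unadjusted p under 0.05). Of the 11 duct markers, 9 had a negative interaction sign (median -0.122). Their median IL-1β effect was 0.491 without and 0.176 with butyrate. The part of these cells in the negative interactions of *Nos2*, *Fabp5* and the other genes raised by IL-1β was not tested. Acinar, endothelial, stromal, T and B cell and neuronal markers had 0 called by both tools, with 4 of 9, 0 of 10, 2 of 18, 0 of 5 and 1 of 8 at an unadjusted p under 0.05.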

How the data were processed

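RNA from 16 cultures of mouse islets was sequenced on an Illumina HiSeq system, single-end. Per the labels, the submitters' processing notes name bcl2fastq 2.19.1, STAR 2.5.3a and the builds mm10 and GRCm38.p5. The deposited values are counts of reads per gene, whole numbers made by the authors without normalization, for 52636 genes, of which 10560 had no count. The annotation release and strand setting are not given in the sources used here, and there were no molecular identifiers. GENCODE M21 gave symbols and positions for 52489 identifiers. Promoters were from RefSeq (GRCm38.p6).

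In R 4.3.3, edgeR 4.0.16 kept genes by filterByExpr (18587), scaled by TMM and fitted a robust quasi-likelihood model with the 4 conditions and the replicate number as a block to all 16 libraries. Genes were called at a Benjamini-Hochberg FDR under 0.01, the threshold of the study. A condition with at most 3 counts in each library was taken as at the floor. The fit was tested on simulated data. Python 3 scripts searched the promoters. The alternatives used limma 3.58.1 (voom, and 1 value per replicate number), DESeq2 1.42.0, other scalings, filters and scales, and fits without each library.

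The genes named are the 12 with the largest interaction of each sign among those called with the same sign in all 4 replicate numbers and a mean log2 CPM of 1 or more, the 5 with the smallest FDR of each sign, up to 3 called genes of each sign from each of 35 lists (S and G2/M genes from Seurat 5.3.0), and called genes that the study names, with *Ins2*, *Mafa* and *Ucn3*. A few items are not reported here by name and were left out of the lists. Genes outside this rule were picked with their values known, which the text states. The members, lists and tests were chosen with earlier results of these data known. The replicates are cultures of islets pooled from several mice. The p-values of the blocked fit measure the spread between such cultures that is left after the shift shared by a replicate number is removed. Those of the fit without the block measure the whole spread between cultures. No columns of other samples were found, and replicates of a condition differed by more than counting error (chi-square per gene 1.72 to 13.5).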

Additional observations from a re-analysis of the deposited data

Results flagged for a closer look

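The interaction itself is a difference between groups, the butyrate effect without and with IL-1β, and 132 genes passed its test. Among the genes named by the rule above, the effect of butyrate was called in both settings with opposite signs for *C3* (interaction 1.17 on the log2 scale), *Alcam* (0.59), *Phactr1* (-0.50), *Tmem215* (-0.54) and *Aqp4* (-0.79). This also held for *Tmem176b* (0.35), picked outside that rule. The effect of IL-1β was called with opposite signs without and with butyrate for *Slfn9* (1.05), *Rassf10* (0.84), *Slc7a3* (0.76) and *Phactr1* (-0.50). *Bace2* (-0.46), picked outside that rule, also had opposite IL-1β effects.

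By Dixon's test at 95%, 1 library stood apart from the other 3 of its condition in 14 of 200 sets of 4 values (7%), where chance gives about 1 in 20. In replicate 1 these were *Rassf10* (13.6 CPM) and *Nfkb2* (12.7) in control, *Slc7a3* (9.59), *Slc5a10* (4.67) and *Ptgs2* (1.46) in butyrate, *Etv1* (133), *Phactr1* (284) and *Nfkb2* (86.3) in IL-1β, and *B2m* (34.4) and *Il18r1* (2.68) in IL-1β plus butyrate. In the other replicates they were *Scd2* in butyrate replicate 4 (203), *G6pc2* (1034) and *Cacna1g* (42.7) in IL-1β replicate 4, and *Aqp4* in IL-1β replicate 2 (77.1). Thus 10 of the 14 were in replicate 1. Among the differences of differences of single replicate numbers, 2 of 49 genes had a value apart, *Mki67* (1.15) and *Ugt2b35* (-2.40), both in replicate 4.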

How the results depend on the processing

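All 132 interactions kept their sign in the 31 alternatives on a log2 scale, whereas the number of calls depended on the setting. Without the replicate block 18 genes were called (8 positive, 10 negative), and 12 of the 46 called genes named by rule kept the call. The replicate numbers are not said by the labels or the study's methods to mark a shared islet pool. The study does describe 4 independent experiments, and each number occurs once in every condition. Deviations from the condition means of libraries with the same number correlated with r from 0.0535 to 0.397 (24 pairs, mean 0.152, 17 above 0.1). In 72 pairs with other numbers r was -0.293 to 0.17, with a mean of -0.0495. Centring on the condition means lowers this mean when libraries of the same number correlate, so these means are not independent. By mean r, 14 of 16 libraries correlated best with their own number. That is a hint of pairing, which the sources do not state. On the linear CPM scale 23 genes were called (6 positive, 17 negative), the signs of *Ccl28* (-0.50) and *Cacna1g* (0.63) were reversed, in units of the gene's mean, and the single effects gave 2734 (butyrate without IL-1β), 2907 (with IL-1β), 2733 (IL-1β without butyrate) and 2165 genes (with butyrate). Without a filter on low counts 243 were called (124 positive, 119 negative), at an FDR under 0.05 there were 319 (145 and 174), and scaling by library size alone left 43 negative calls. Without 1 library or 1 replicate number the calls ranged from 53 to 159, with 17 to 62 positive and 36 to 101 negative. Of the 46 called genes named, 26 were called in every fit without 1 library, and 18 also in every fit without 1 replicate number; 11 of these 18 were called without the block as well. The limma fit with 1 difference of differences per replicate number called 191 genes, 121 of them among the 132. The cause of these differences was not tested. At a median of 22184715 counts per library, the median SE of the interaction was 0.121 on the log2 scale, so small interactions could not be told from none.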

Other observations

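Some called genes outside the rule for named genes carry roles not yet described; they were chosen after their values were seen. *Gadd45b*, a stress response gene, and *Adcy1*, an adenylate cyclase, had interactions of -0.91 (edgeR FDR 0.00678) and -0.70 (FDR 0.00125); IL-1β changed them by 1.36 and 1.69 on the log2 scale without butyrate and by 0.45 and 0.99 with it. *Itgb8*, an integrin subunit, had -0.54 (FDR 0.000214), and *Bace2*, a protease of beta cells, -0.46 (FDR 1.27e-06). *Gad1*, glutamate decarboxylase, had -0.36 (FDR 0.000578), with a butyrate effect of 0.45 without and 0.088 with IL-1β. *Lipa* and *Scarb2*, genes of the lysosome, had -0.51 (FDR 0.000724) and -0.31 (FDR 0.000464).

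Among positive interactions, *E2f1*, a transcription factor of the cell cycle, had 0.41 (FDR 0.00486), *Topbp1* and *Ncapg2*, genes of DNA replication checkpoints and chromosome condensation, had 0.40 (FDR 0.00511) and 0.55 (FDR 0.00721). *Tmem176a* and *Tmem176b*, neighbouring membrane protein genes, had 0.40 (FDR 0.000105) and 0.35 (FDR 0.00195), on top of IL-1β effects of 1.90 and 1.78. Both share exonic positions with at least 1 other annotated gene, and the strand setting of the counting is not given. Butyrate changed *Tmem176b* by -0.19 alone and by 0.16 with IL-1β. *Ntf5*, a neurotrophin at a low level, had the largest positive value, 1.43 (FDR 0.00960). Of these genes, *Itgb8* and *Bace2* were also called without the replicate block.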
